A study of Mus musculus with 16 samples.

Results

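The mir-671 hairpin yields a miRNA from each arm, mmu-miR-671-5p and mmu-miR-671-3p (miR-671-5p and miR-671-3p here). These 2 of the 611 mouse miRNAs on the arrays were taken by name, and the hairpin was chosen on the higher 5p signal at late passage. Both were measured in total RNA from primary mouse embryonic fibroblasts (MEFs) of a mixed FVB/n and C57Bl/6 background, on 16 one-colour arrays in 8 groups of 2. The groups were Ercc1-/- and wild-type (WT) MEFs at passage 7 (P7, late) and passage 3 (P3, early), each in 20% and in 3% O2. The cells were primary, carried no transgene, and were collected short of confluence, and the Ercc1-/- cells lack the gene throughout. Ercc1 encodes a subunit of the XPF-ERCC1 nuclease, which acts in nucleotide excision repair and in the repair of DNA crosslinks. The methods name 2 independent cell lines and the series' design names 2 independent experiments, but the labels do not say which arrays share a line. The arrays with replicate number 1 lay on 1 slide and those with number 2 on another, so that replicate, slide and scan cannot be told apart.

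A miRNA hairpin is cut out of its transcript by Drosha and freed of its loop by Dicer, and usually 1 of the strands of the remaining duplex is kept in an Argonaute protein while the other is degraded. Bases 2 to 8 of the kept strand, the seed, pair with target RNAs. miR-671 is best known for directing the cutting of the circular and antisense transcript of Cdr1, to which it pairs almost along its whole length.

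Both strands are shown here because the contrast between them is the subject of the measurements. They are given from 5′ to 3′ with the seed in capitals (sequences and positions from RefSeq, GRCm38.p6).
mmu-miR-671-5p: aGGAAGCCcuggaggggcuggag
mmu-miR-671-3p: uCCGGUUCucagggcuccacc
The 5p strand lies on chromosome 5 at chr5:24592132-24592154 and the 3p strand at chr5:24592171-24592191, both on the plus strand, with 16 bases between them. The hairpin, chr5:24592114-24592211, lies within the span of Chpf2 (chr5:24586744-24594398), which encodes a chondroitin polymerizing factor. No annotation of exons was used here, so its place in an exon or intron of Chpf2 is not given. The 5p strand has 23 bases, of which 52.2% are G, and holds a run of 4 G, and the 3p strand has 21 bases, of which 23.8% are G, and no such run. The seeds GGAAGCC and CCGGUUC differ, and 0 of the other mature mouse miRNAs among the 1679 in the RefSeq table carries either of them.

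A signal here is the background-subtracted spot intensity, averaged over the spots of a probe and then over the probes of a miRNA. A scaled signal is that value after the arrays were set to an equal mean log2 signal over the 57 mouse miRNAs above background on all arrays, and that mean before scaling is called the reference level of the array. Each strand had 4 probes of 5 spots, 20 spots on an array. A probe was taken to be above background if the scanner software had marked a share of 0.5 or more of its spots so, and a miRNA if this held for 1 or more of its probes. The arrays had 117 to 257 mouse miRNAs above background, and 235 passed on both arrays of some group and entered the tests. The Ercc1-/- P7 20% O2 array of slide 2 stood apart, with the lowest reference level (5.80 on the log2 scale) and a mean correlation of 0.470 with the other arrays. All 5 mesenchymal markers were above background on some array and 3 on all 16. Of the others, 0 of 6 epithelial, 0 of 1 liver, 3 of 5 blood, 4 of 6 neural and 1 of 4 muscle markers were above it on any array. The listed markers above it on none included miR-200c, miR-122, miR-451, miR-124 and miR-1, whereas miR-142-3p (blood) was above it on 5 arrays and miR-129-3p (neural) on 11. The summed scaled level of the mesenchymal markers spanned 650 to 8420 at P7 and 5179 to 7225 at P3, that of the blood markers 2.03 to 92.1 at P7 and 7.23 to 70.6 at P3, that of the neural markers 2.88 to 91.5 at P7 and 25.4 to 50.7 at P3, and that of the muscle markers 2.38 to 28.3 at P7 and 0.579 to 6.06 at P3, and their part in the miR-671-5p signal was not tested. As a check of the oxygen labels, miR-210, a miRNA induced by low oxygen, was lower in 20% than in 3% O2 in 8 of 8 pairs of arrays, by 2.99 on average (log2, SE 0.35, limma adjusted p = 0.000615).

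miR-671-5p was above background on 13 of the 16 arrays, and miR-671-3p on 0 of 16. Of the 320 spots of each strand over all arrays, 216 were well above background for miR-671-5p and 2 for miR-671-3p, and the scanner software's own detection call gave the same 13 and 0 arrays. The 5p arrays above background comprised all 8 at P7 and 5 of the 8 at P3. The 3 without such a signal were all P3 arrays of slide 2. In bulk RNA of this kind, fewer cells with a miRNA and less of it per cell cannot be told apart.

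In Ercc1-/- MEFs at P7, the unscaled signal of miR-671-5p was 22.9 on slide 1 and 97.9 on slide 2 in 20% O2, and 30.1 on slide 1 and 52.3 on slide 2 in 3% O2. In Ercc1-/- MEFs at P3 it was 15.5 on slide 1 and 4.57 on slide 2 in 20% O2, and 13.8 on slide 1 and 3.08 on slide 2 in 3% O2, and both slide 2 values were not above background. All 4 Ercc1-/- P7 arrays lay above all 4 Ercc1-/- P3 arrays, and the distance was wider on slide 2. In WT MEFs at P7 it was 17.3 on slide 1 and 34.5 on slide 2 in 20% O2, and 20.9 on slide 1 and 40.5 on slide 2 in 3% O2. In WT MEFs at P3 it was 19.3 on slide 1 and 0.932 on slide 2 in 20% O2, and 21.4 on slide 1 and 6.17 on slide 2 in 3% O2, with 0.932 not above background. On slide 1 the WT arrays of the 2 passages overlapped, and on slide 2 they were apart.

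**Figure D1:**
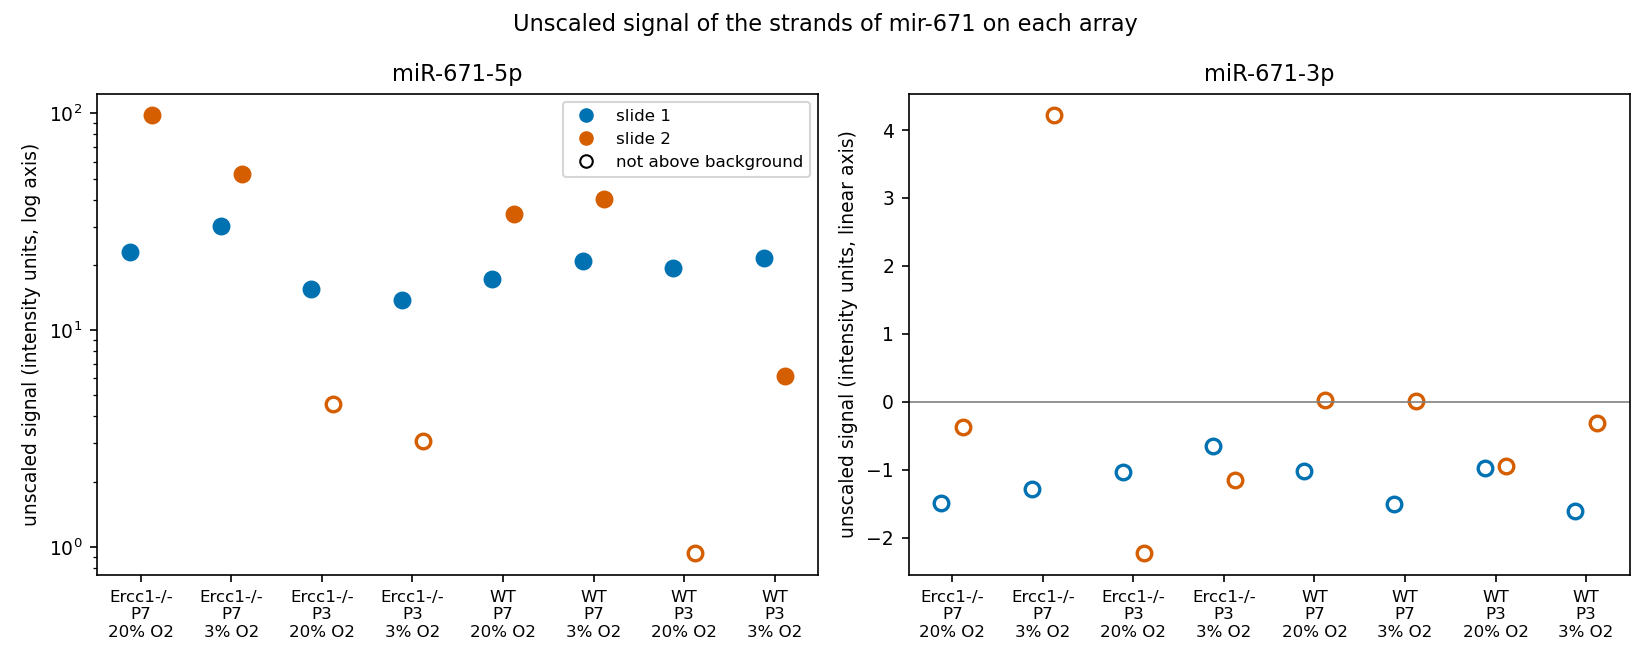
Unscaled signal of miR-671-5p (left, log axis) and miR-671-3p (right, linear axis) in intensity units on each of the 16 arrays, by group, with blue points for slide 1, orange for slide 2 and open points for values not above background. On slide 1 miR-671-5p stays between 13.8 and 30.1 in all groups, on slide 2 it spans 34.5 to 97.9 at P7 and 0.932 to 6.17 at P3, and miR-671-3p is not above background anywhere.

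Over both genotypes and oxygen levels, the unscaled miR-671-5p signal had a range of 17.3 to 30.1 at P7 and 13.8 to 21.4 at P3 on slide 1, and these ranges overlap. On slide 2 the P7 arrays covered 34.5 to 97.9 and the P3 arrays 0.932 to 6.17, with no overlap. The slides thus moved in opposite directions within each passage: every P7 array of slide 2 was brighter than its slide 1 partner, and every P3 array of slide 2 was dimmer. The reference level of the arrays followed another order, with 7.91 to 9.29 at P7 and 9.31 to 9.77 at P3 on slide 1, and 5.80 to 7.99 at P7 and 6.98 to 8.65 at P3 on slide 2 (log2). The P7 arrays of slide 2 thus had the highest miR-671-5p signals and a mean reference level of 6.98, the lowest of the 4 sets, whereas the P3 arrays of slide 2 had the lowest miR-671-5p signals at a mean reference level of 8.12. The part of the reference level in the miR-671-5p signal was not tested.

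**Figure D2:**
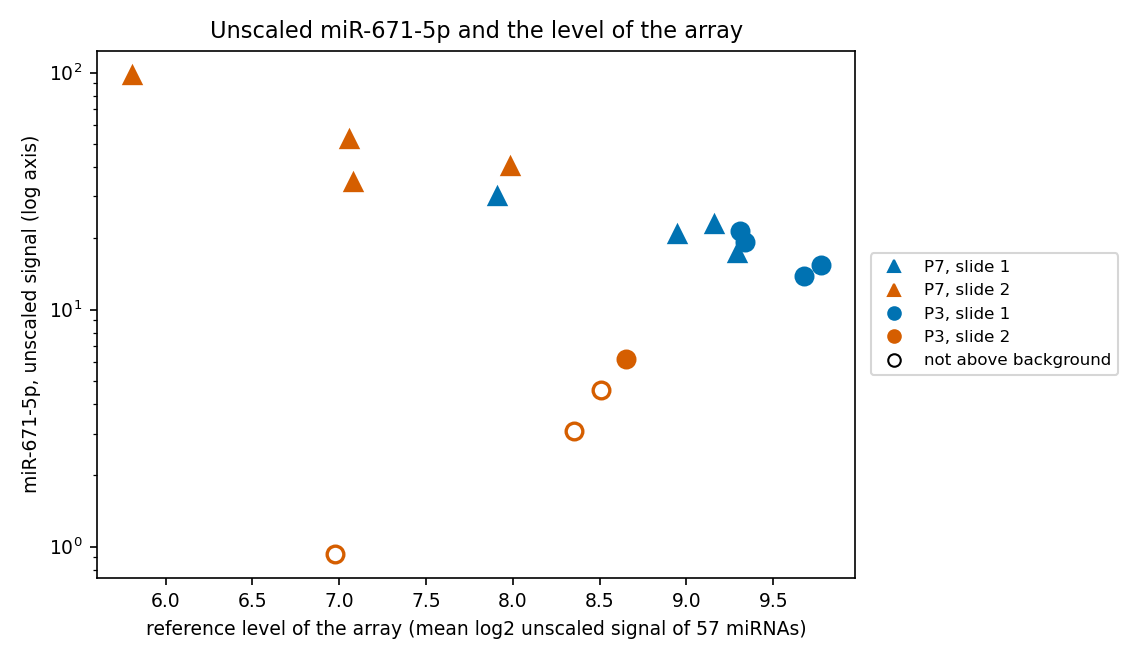
Unscaled miR-671-5p signal (y, log axis, intensity units) against the reference level of the array (x, mean log2 unscaled signal of 57 miRNAs), with triangles for P7, circles for P3, blue for slide 1, orange for slide 2 and open symbols for values not above background. The 4 P7 arrays of slide 2 lie at the top with reference levels of 5.80 to 7.99, and the 4 P3 arrays of slide 2 lie at the bottom with reference levels of 6.98 to 8.65.

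Scaling, which divides by the reference level, widened the distances between the passages. In Ercc1-/- MEFs at P7 the scaled log2 signal was 3.72 and 9.17 in 20% O2 and 5.37 and 7.01 in 3% O2 (slide 1 first), and at P3 it was 2.54 and 2.05 in 20% O2 and 2.47 and 1.64 in 3% O2. In WT MEFs at P7 it was 3.18 and 6.39 in 20% O2 and 3.80 and 5.72 in 3% O2, and at P3 it was 3.29 and 1.50 in 20% O2 and 3.48 and 2.34 in 3% O2, where 1.50 is the floor to which lower values were set. The ranges over the 8 arrays of each passage overlapped slightly on this scale, since the WT P7 20% O2 array of slide 1 lay below the WT P3 arrays of the same slide. Ordered by the mean, the groups were Ercc1-/- P7 20% O2 (6.45 ± 3.85), Ercc1-/- P7 3% O2 (6.19 ± 1.17), WT P7 20% O2 (4.79 ± 2.27), WT P7 3% O2 (4.76 ± 1.35), WT P3 3% O2 (2.91 ± 0.81), WT P3 20% O2 (2.40 ± 1.27), Ercc1-/- P3 20% O2 (2.29 ± 0.35) and Ercc1-/- P3 3% O2 (2.06 ± 0.59) (SD, n = 2 each). In 6 of the 7 neighbouring pairs the gap was below the larger SD of the pair. The exception was the gap of 1.85 between WT P7 3% O2 and WT P3 3% O2, which parts the P7 groups from the P3 groups.

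**Figure D3:**
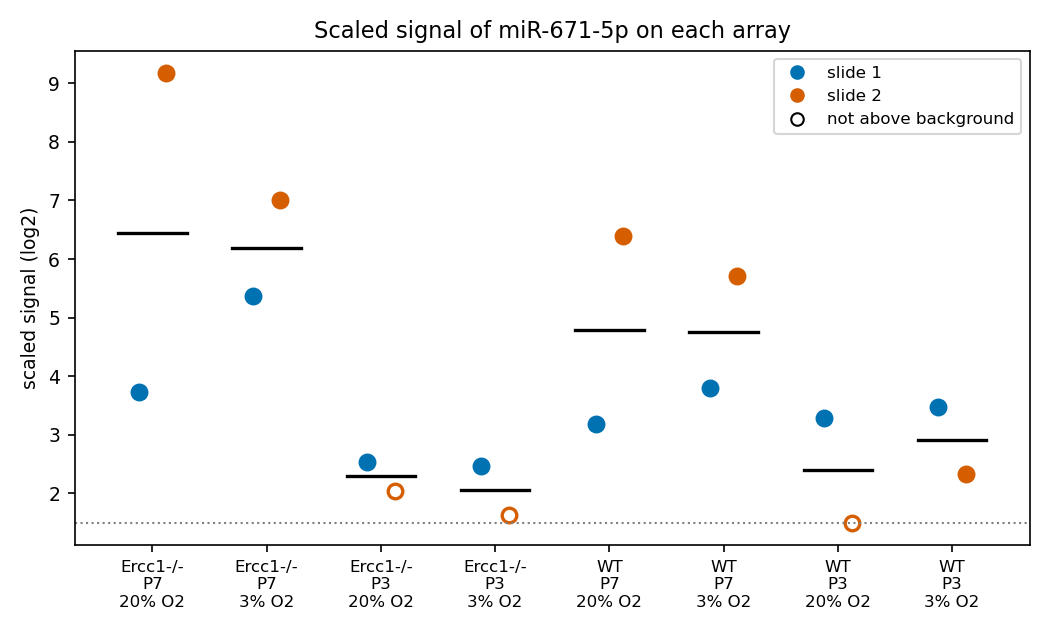
Scaled log2 signal of miR-671-5p on each array by group, with blue points for slide 1, orange for slide 2, open points for values not above background, black bars for the mean of the 2 arrays and a dotted line at the floor of 1.50. The 4 P7 means lie between 4.76 and 6.45 and the 4 P3 means between 2.06 and 2.91, while within the Ercc1-/- P7 20% O2 group the 2 arrays are at 3.72 and 9.17.

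The passage comparison asks which miRNAs change with serial passaging, and it is the comparison for which miR-671-5p was chosen, so its values are a description without a test. Averaged over genotype and oxygen, the scaled signal was higher at P7 than at P3 by 3.13 (log2, SE 0.78), with 1.07 on slide 1 and 5.19 on slide 2. On slide 2, 3 of the 4 P3 arrays were not above background, so the slide 2 value and the average are set against signals not told from background there. Each of these 3 arrays was also set at the higher of its own value and the array's lowest signal above background. The scaled change was then 4.46 on slide 2 and 2.76 over both slides. These are not strict limits, since miRNAs never above background reached signals over that lowest one on these arrays. On the WT P3 20% O2 array of slide 2 they reached 11.8, against 6.87 (unscaled). Without scaling the change was 1.99 (SE 0.62), with 0.37 on slide 1 and 3.61 on slide 2. Unscaled signals under a floor of 3.38 were set to it here. On slide 2 at P3 this raised the WT 20% O2 signal of 0.932 and the Ercc1-/- 3% O2 signal of 3.08, so 3.61 rests partly on the floor. The median change of the 235 tested miRNAs was −0.39 scaled and −1.14 unscaled, and miR-671-5p held rank 5 from the top on both scales. Without the Ercc1-/- P7 20% O2 array of slide 2, the scaled change was 2.45.

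In the 4 passage comparisons of single groups, the change was 4.15 in Ercc1-/- MEFs in 20% O2 (1.18 on slide 1, 7.13 on slide 2), 4.13 in Ercc1-/- MEFs in 3% O2 (2.89 and 5.38), 2.39 in WT MEFs in 20% O2 (−0.11 and 4.90) and 1.85 in WT MEFs in 3% O2 (0.32 and 3.38), each on the scaled log2 scale with an SE of 1.56. Their differences from each other were not tested. The slide 2 values of the first 3 stand against P3 arrays that were not above background. With those P3 arrays set in the same way, the slide 2 values were 6.85 in Ercc1-/- MEFs in 20% O2, 5.38 in Ercc1-/- MEFs in 3% O2 and 2.22 in WT MEFs in 20% O2. These too are not strict limits. With them slide 2 still gave the larger change in all 4, and slide 1 alone gave values near 0 in WT MEFs. Unscaled, slide 1 gave 0.56 and 1.12 in Ercc1-/- MEFs in 20% and 3% O2, and −0.16 and −0.04 in WT MEFs in 20% and 3% O2. With the normexp background correction and an added offset of 50 in place of the software's subtraction, the averaged change was 0.94 and the rank 15. Such an offset narrows the log2 changes of dim miRNAs, and its part was not tested apart from that of the correction. With scaling to 20 positive control probes it was 2.52, with 0.94 on slide 1 and 4.11 on slide 2. On both slides the P3 arrays lay in array row 1 and the P7 arrays in row 2, so passage and position on the slide cannot be told apart.

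**Figure D4:**
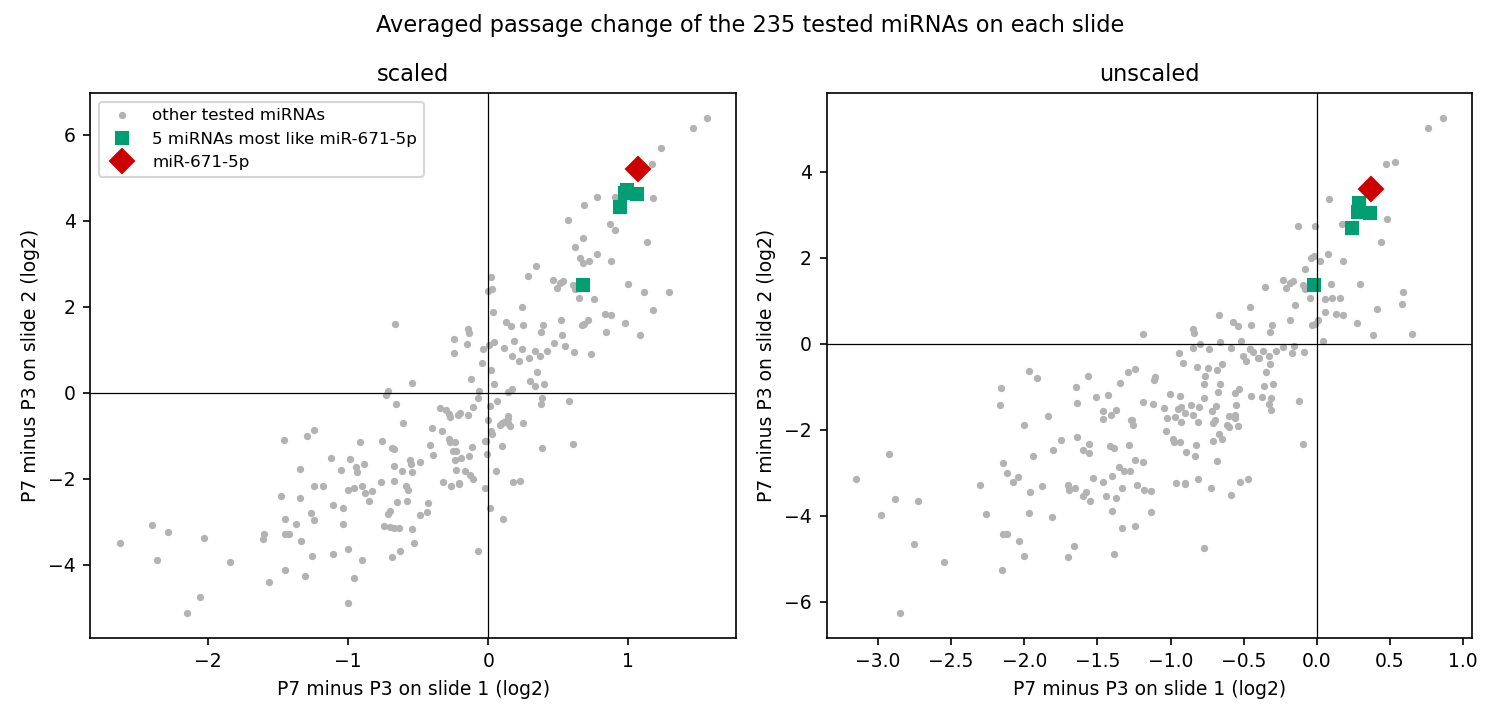
Averaged passage change (P7 minus P3, log2) of the 235 tested miRNAs on slide 1 (x) and slide 2 (y), scaled (left) and unscaled (right), with miR-671-5p as a red diamond, the 5 miRNAs most like it as green squares and the others as grey points. miR-671-5p lies at 1.07 and 5.19 scaled and at 0.37 and 3.61 unscaled, near the upper right end of each cloud together with 4 of the 5 green squares.

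Of the 235 tested miRNAs, 105 were higher at P7 on slide 1 and 94 on slide 2 after scaling, against 34 on slide 1 and 64 on slide 2 without it. miR-671-5p was among the higher ones in all 4 cases, at rank 11 on slide 1 and rank 5 on slide 2 after scaling, and rank 12 and rank 5 without it.

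The 4 probes of miR-671-5p can be read singly, again as a description of the contrast that chose the miRNA. Their order of brightness was the same on 13 of the 13 arrays above background, with A_54_P2869 the brightest and A_54_P2866 the dimmest. A_54_P2866 gave 14.1 ± 1.21% of the summed probe signal at P7 (SD, n = 8) and 12.6 ± 2.64% at P3 (SD, n = 5). A_54_P2869 gave 39.5 ± 1.71% at P7 (n = 8) and 43.5 ± 5.36% at P3 (n = 5). The P7 arrays were 4 of each slide, but the P3 arrays were 4 of slide 1 and 1 of slide 2, so passage and slide are mixed here. That slide 2 array had 1 of the 4 probes above background. The scaled passage change of single probes was 0.96 to 1.16 on slide 1 and 4.77 to 5.19 on slide 2, and without scaling it was 0.26 to 0.46 on slide 1 and 3.13 to 3.66 on slide 2. At P3 on slide 2, no probe was above background except A_54_P2869 on the WT 3% O2 array. Probe values under the floor were set to it in these changes. All slide 2 P3 values of A_54_P2866, −0.158 to 2.94, were under the unscaled floor of 3.38, so its 3.13 rests on the floor. The likeness of the probes on slide 2 follows in part from that. Unscaled, the P7 signal was above the P3 signal in 8 of 8 probe pairs of Ercc1-/- MEFs on each slide, and in 1 of 8 on slide 1 and 8 of 8 on slide 2 in WT MEFs. The dimmest probe, A_54_P2866, was above background on 7 arrays, and the brightest on 13. These probes read the same strand and are not independent replicates. The median coefficient of variation between the spots of a probe was 4.63% to 28.2% over the 13 arrays, and 0 of the spots was saturated.

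**Figure D5:**
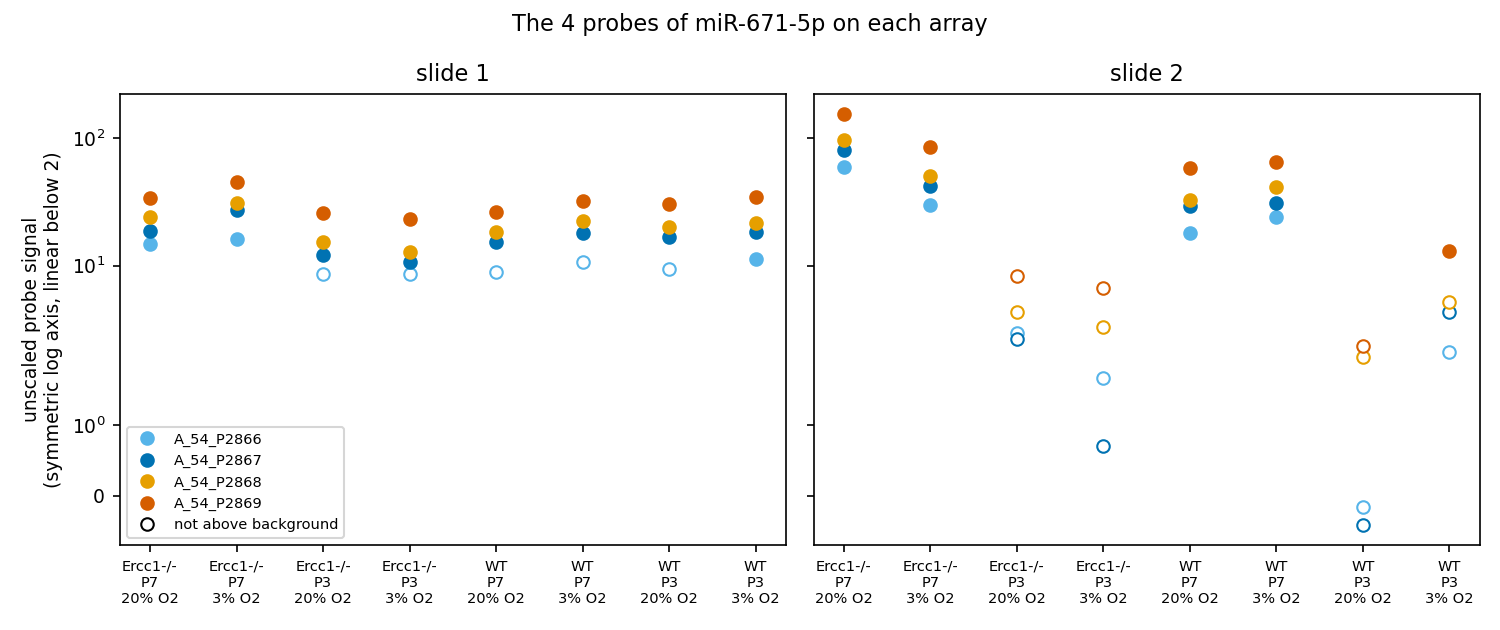
Unscaled signal of each of the 4 probes of miR-671-5p (colours) by group on slide 1 (left) and slide 2 (right), on a symmetric log axis that is linear below 2, with open points for values not above background. The probes keep their order on every array where miR-671-5p is above background, and all 4 are high at P7 and low at P3 on slide 2.

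miR-671-3p, the other strand, gave no level on any array. Its unscaled signal was between −2.23 and 0.021 on 15 of the 16 arrays. With miR-671-3p counted, 303 mouse miRNAs were never above background, and the median of the others was −1.69 to −0.42 over the 16 arrays. The exception was the Ercc1-/- P7 3% O2 array of slide 2, at 4.22, with its 4 probes at 3.10 to 4.84. On that array those others had a median of −0.44 and a highest value of 5.59, miR-671-3p ranked 5 among the 303, and the lowest signal above background was 3.16. On the other arrays its rank among the 303 was 50 to 231. Since neither group of any pair was above background, no fold change is given for this strand, no passage, genotype or oxygen difference was tested, and the difference between the strands has no value.

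Other hairpins show how often such a one-sided reading occurs on these arrays. Of 168 hairpins with both strands on the array, 54 had each strand above background on at least 1 array, not always the same one. A further 68 had 1 strand only and 46 had neither. In 28 of them, 1 strand was above background on 13 or more arrays and the other on none, as for mir-671. Both strands could be tested for 33 hairpins, and their passage changes had the same sign in 18. The strands differed by more than 1 (log2) in 25 of the 33, with a range of −2.83 to 3.05 and a median of 0.40 for the first strand minus the second. The 4 largest differences of the first strand over the second were those of miR-299 (0.10, against −2.95 for miR-299*), miR-31 (0.61, against −2.39 for miR-31*), miR-22 (1.47, against −1.39 for miR-22*) and miR-129-5p (1.55, against −0.91 for miR-129-3p), all as scaled passage changes with no test.

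The genotype comparison is a contrast other than the one that chose miR-671-5p, on the same arrays. Averaged over passage and oxygen, the scaled signal was higher in Ercc1-/- than in WT MEFs by 0.53 (log2, SE 0.78, 95% interval −1.17 to 2.24, limma adjusted p = 0.933), with 0.09 on slide 1 and 0.98 on slide 2, a difference below the spread between arrays. In this comparison 1.7% of the 235 tested miRNAs were called at an adjusted p under 0.05, and miR-671-5p was not among them. The interval still holds differences of more than 2 log2 units. Without the Ercc1-/- P7 20% O2 array of slide 2 the difference was −0.15, and without its slide 1 partner it was 1.21. Same-numbered arrays deviated together within a passage (median r of 0.81 between P7 groups and 0.61 between P3 groups). With a slide effect of its own in each passage, chosen after seeing the data, the SE of the difference was 0.37 and its limma adjusted p 0.401. With same-numbered arrays of a genotype taken as 1 cell line and set as a random block, the SE was 1.02 and the limma adjusted p 0.995.

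Taken group by group, the difference of Ercc1-/- from WT MEFs was 1.66 at P7 in 20% O2 (limma adjusted p = 0.780) and 1.43 at P7 in 3% O2 (adjusted p = 0.988). At P3 it was −0.10 in 20% O2 and −0.85 in 3% O2 (limma adjusted p = 1 for both). Each had an SE of 1.56, and none of these differences was called. On slide 2, 3 of the 4 P3 arrays were not above background, so the P3 differences rest partly on signals not told from background. At P7 the sign was the same in all 4 pairs of arrays on a slide, with 0.54 and 2.78 in 20% O2 and 1.56 and 1.30 in 3% O2 (slide 1 first). With the slide effect within passages the SE was 0.74, the limma adjusted p at P7 was 0.216 in 20% O2 and 0.410 in 3% O2, and again none was called. The shares of tested miRNAs called in them were 0.426% at P7 in 20% O2, 0% at P7 in 3% O2, 0.851% at P3 in 20% O2 and 0% at P3 in 3% O2, and in 3% O2 limma gave 7 miRNAs at P7 and 6 at P3 at an unadjusted p under 0.05.

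The oxygen comparison, which sets oxidative culture stress against near-physiological oxygen, gave no difference in miR-671-5p that could be told from 0. The scaled signal in 20% O2 minus that in 3% O2 was 0.00 on average (log2, SE 0.78, 95% interval −1.70 to 1.71, limma adjusted p = 1.000), with −0.60 on slide 1 and 0.60 on slide 2. In this comparison 0.851% of the tested miRNAs were called. The difference was 0.26 in Ercc1-/- MEFs at P7, where the slides went apart (−1.64 on slide 1, 2.16 on slide 2), and 0.24 in Ercc1-/- MEFs at P3. It was 0.03 in WT MEFs at P7 and −0.51 in WT MEFs at P3. Both P3 values rest partly on slide 2 arrays that were not above background, 3 of the 4 there. In each of these 4 comparisons the limma adjusted p was 1 and 0% of the tested miRNAs were called, and at an unadjusted p under 0.05 limma gave 7 miRNAs in Ercc1-/- MEFs at P7, 1 in Ercc1-/- MEFs at P3, 4 in WT MEFs at P7 and 2 in WT MEFs at P3. The genotype difference in 20% O2 minus that in 3% O2 was 0.49 (SE 1.56, limma adjusted p = 1.000). Genotype and oxygen followed the column of the array on the slide and cannot be told apart from it.

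The miRNAs whose scaled signal ran most like that of miR-671-5p over the 16 arrays were miR-1894-3p (Pearson r = 0.993), miR-705 (0.991), miR-1892 (0.990), miR-483 (0.988) and miR-320 (0.985). These are descriptions over 16 arrays that share slides and scaling, and 4 of the 5 were also among the 5 most alike without scaling, where r was 0.976, 0.983, 0.988 and 0.966 for the first 4 and 0.703 for miR-320. All 5 stayed the most alike after the passage means were removed. Of the 234 other tested miRNAs, 33 had an r over 0.9 after scaling and 145 had one below 0, and the median was −0.56. The averaged scaled passage changes of the 5 were 2.81, 2.64, 2.86, 2.84 and 1.59. As with miR-671-5p, the changes were larger on slide 2 (4.65, 4.33, 4.72, 4.63 and 2.50) than on slide 1 (0.98, 0.94, 0.99, 1.06 and 0.68). Since the 5 were chosen by correlation over the same 16 arrays, this follows in part from the choice and is no further likeness.

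Of these 5, the 3 with an entry of the same name in the RefSeq table are shown because their sequences can be set beside that of miR-671-5p, again with the seed in capitals (GRCm38.p6).
miR-1894-3p, chr17:35917938-35917959, plus strand: gCAAGGGAgagggugaagggag
miR-705, chr6:85336341-85336360, minus strand: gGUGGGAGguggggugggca
miR-1892, chr12:54645943-54645964, minus strand: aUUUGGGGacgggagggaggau
None of the 3 shares the seed of miR-671-5p. The share of G was 59.1% in miR-1894-3p, 70.0% in miR-705 and 54.5% in miR-1892, against 52.2% in miR-671-5p and a median of 26.9% over the 1679 mature mouse miRNAs of the table, of which 4.65% have a share of G at or above that of miR-671-5p. Of the 10 miRNAs most like miR-671-5p, 3 more have an entry, miR-1895 with 45.5% G, miR-1896 with 45.5% and miR-188-5p with 38.1%, all below miR-671-5p and without a run of GGGG. A run of GGGG (in the strand itself, no other strand searched) is present in miR-671-5p, miR-705 and miR-1892 and in 11.2% of the table. Only 162 of the 611 array names were found in the table, too few to relate base content to the change over all tested miRNAs.

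The arrays also carry probes for 39 miRNAs of mouse herpesviruses, which were not made to read a mouse miRNA. The source of their signal was not tested. Of these, 7 were above background on some array. mcmv-miR-M87-1 was above background on 5 of the 8 P7 arrays and on 0 of the 8 P3 arrays. Its unscaled signal had a range of 10.7 to 37.3 at P7 and −3.95 to 0.315 at P3 on slide 2, and of 4.93 to 9.83 at P7 and 2.28 to 3.91 at P3 on slide 1. Most of these values were not above background, and on slide 1 mcmv-miR-M87-1 was above it on 1 array only. Its Pearson r with the unscaled log2 signal of miR-671-5p, 0.782 over the 16 arrays, was the highest of the 7, and those of the others were 0.078 to 0.767. mcmv-miR-M23-1-3p was above background on 4 P7 arrays and 0 P3 arrays, while mcmv-miR-M23-1-5p and mcmv-miR-m88-1 were above it on all 16. On slide 2 mcmv-miR-m88-1 had 21.8 to 31.7 at P7 and 17.3 to 29.9 at P3, and on slide 1 at least 46.6 at P7 and 58.2 at P3. It was thus higher on slide 1 at both passages, whereas miR-671-5p was higher on slide 1 at P3 only. mghv-miR-M1-2, above background on 15 arrays, had 14.6 to 34.0 at P7 and 13.7 to 17.0 at P3 on slide 2. On slide 1 it had 12.4 to 14.7 at P7 and 11.8 to 14.1 at P3. What part a signal of this kind has in that of miR-671-5p was not tested.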

How the data were processed

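Total RNA of 16 MEF cultures was labelled at its 3′ ends with Cy3-pCp and hybridised to Agilent mouse miRNA arrays (V2) of 13715 spots. The deposited intensity values were made by the authors with Agilent Feature Extraction (10.7.1.1 in the file headers), which subtracts the background of each spot and leaves arrays unscaled. The well-above-background, saturation and outlier marks are those deposited by the authors. Control and outlier spots were left out, and signals were averaged per probe and per miRNA and scaled to an equal mean log2 over 57 miRNAs. Scaled values under a floor of 2.82 (each array's lowest signal above background, median of the 16) were set to it. For log2 values without scaling, the floor was found in the same way and was 3.38. limma 3.58.1 in R 4.3.3 fitted 1 mean per group (8 residual and 3.58 prior degrees of freedom), with Benjamini-Hochberg adjustment over the 235 tested miRNAs in each of 16 comparisons. The fit was also run on simulated data with independent errors on all 16 arrays, which leaves out the shared deviations of same-numbered arrays within a passage.

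The members, lists and comparisons were chosen with earlier results of these data known. Passage values carry no p, since passage chose miR-671-5p. The named miRNAs are the members, the 5 most correlated with miR-671-5p over the arrays, the 4 strand pairs with the largest passage change of the first strand over the second (differences of like size the other way round are not named), miR-210 and the cell type markers. The p-values measure the spread between 2 arrays a group, whose number limits the precision. The alternatives changed the scaling, background, summary, floor, filter, test and replicates, and normexp was run on the median signals with an offset of 50. The differences of miR-671-3p, which was not above background, were left out.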

Additional observations from a re-analysis of the deposited data

Results flagged for a closer look

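Of 12 pairs of comparisons of miR-671-5p looked at, the difference between Ercc1-/- and WT MEFs in 3% O2 had opposite signs at the 2 passages on both slides, 1.43 at P7 and −0.85 at P3 (scaled log2). The difference between 20% and 3% O2 at P3 had opposite signs in the 2 genotypes on both slides, 0.24 in Ercc1-/- and −0.51 in WT MEFs. Neither of these differences between effects was tested, and each rests on 2 arrays a group. On slide 2, 3 of the 4 P3 arrays were not above background, both of Ercc1-/- MEFs and that of WT MEFs in 20% O2. The signs at P3 on slide 2 thus rest on signals not told from background.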

How the results depend on the processing

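The difference of miR-671-5p between Ercc1-/- and WT MEFs kept its sign and its side of the threshold under 20 alternatives (0.18 to 0.73). Leaving out 1 array at a time gave −0.15 to 1.21 for it, −0.68 to 0.68 for the oxygen difference and 2.45 to 3.81 for the passage change, with both ends of each range reached by leaving out 1 of the 2 Ercc1-/- P7 20% O2 arrays. The oxygen difference, 0.00262, took a negative sign under 12 of 20 alternatives: −0.0521 without scaling, −0.12 with the mean over all miRNAs, −0.0783 with the 75th percentile over detected and −0.0753 over all miRNAs, −0.12 with quantile scaling, −0.17 with the software's total signal, −0.00936 with the series table, −0.0172 with the median over spots, −0.0413 with the software's detection call, −0.0240 with a floor multiplied by 0.1, and, chosen after seeing the data, −0.0765 with positive control probes and −0.26 with the summed signal. The passage change was 0.94 to 3.45 under 18 alternatives.

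The 4 miRNAs called for genotype became 0 without scaling, with normexp and with the total signal, 8 when dim miRNAs were kept, 2 when the test was limited to the 57 miRNAs detected on every array, 1 with positive control probes, 8 by the methods' t-test and 1 by it after Benjamini-Hochberg adjustment. The 2 called for oxygen became 1 under 11 alternatives: no scaling, mean of all miRNAs, normexp, total signal, median over spots, software detection, floor multiplied by 0.1, dim miRNAs kept, the 57 miRNAs, positive controls and the adjusted t-test. Leaving out 1 array gave 3 to 19 calls for genotype and 1 to 6 for oxygen. The cause was not tested.

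The labels share replicate numbers, and the deviations of same-numbered arrays went together between groups of 1 passage (lowest r 0.71 at P7 and 0.48 at P3) but not between P7 and P3 groups (median 0.03, lowest −0.34). With the replicate block, 7 miRNAs were called for genotype, the difference of miR-671-5p stayed at 0.53, and its call did not change. With the replicate block within each passage, chosen after seeing the data, 10 miRNAs were called for genotype and 2 for oxygen, and miR-671-5p (0.53, SE 0.37) was not called. The alternative limited to the 57 miRNAs gives no value for miR-671-5p, and no alternative was run for miR-671-3p or the strand difference, since that strand was not above background.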
